A study of Mus musculus with 19 samples.

Results

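The genes described here are 10 cell-cycle inhibitors and genes of the response to the transcription factor p53, read in mouse EDL (extensor digitorum longus), a limb muscle of fast fibres. They are Cdkn1a, Cdkn1b, Cdkn1c, Cdkn2c, Gadd45a, Phlda3, Trp53inp1, Ddit4l, Mdm2 and Ccng1, 10 of the 18193 genes that have a probe set of their own on the array. The members were chosen by a list of symbols that was drawn up with earlier results of the HSALR against wild-type contrast in view, so their differences between the groups are given as a description, with no test. They are read by 19 probe sets that are annotated to a single gene, out of 45037 that are not array controls.

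The study compared 10 EDL samples from HSALR mice of transgenic line 20 b with 9 EDL samples from wild-type (WT) mice, and both groups were 19 weeks old and on the FVB strain. HSALR mice carry a human skeletal actin gene with a long CTG repeat, which is expressed in skeletal muscle, and are used as a model of the muscle disease in myotonic dystrophy. All HSALR samples carry the same transgene line. Each sample was hybridised to its own 1-colour Affymetrix array, and the labels do not say whether samples came from separate animals, so a p-value here measures the spread between these samples. The transgene itself has no readout here, because it is not known whether the Acta1 probe set reads the human transcript. That probe set had median signals of 12353 in HSALR and 11991 in WT samples.

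Cells stop dividing when inhibitor proteins bind and block the cyclin-dependent kinases that drive the cycle. Cdkn1a, Cdkn1b and Cdkn1c encode inhibitors of the Cip/Kip family (p21, p27 and p57), and Cdkn2c encodes the INK4 family inhibitor p18. In skeletal muscle, where the fibre nuclei have left the cell cycle for good, Cdkn1a and Cdkn1c are known for their part in the exit of myoblasts from the cycle. The protein p53 switches on Cdkn1a, and also Gadd45a, Phlda3, Trp53inp1, Mdm2 and Ccng1, after DNA damage and other stresses. Mdm2 in turn marks p53 for breakdown, which closes a feedback loop. Ddit4l, a relative of the p53 target Ddit4, encodes an inhibitor of mTORC1 signalling that is abundant in muscle.

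The promoters of Cdkn1a, Phlda3 and Ddit4l, the members called different between the groups, are printed first, since p53 acts by binding DNA near its targets. The RefSeq table of promoters, on the mouse build GRCm38.p6, held 10 windows for 8 of the members, those other than Cdkn1c and Trp53inp1. Each window runs from 250 bases before to 50 bases after an annotated start. Both strands were searched for the p53 half-site, the decamer of which a pair makes a full p53 site. The motif was present in 5 of the 10 windows, and in 8.36% of the 32851 promoters in the table. It stood in a Cdkn1a window and in those of Gadd45a, Ddit4l, Mdm2 and Ccng1. Capitals mark the half-site matches below, which are descriptions of the letters and not evidence of binding.
The 4 windows of Cdkn1a, Phlda3 and Ddit4l show the difference between a window with 2 matches (Cdkn1a at its first start, chr17:29090729-29091028), one with 1 match (Ddit4l, chr3:137623422-137623721) and those with none (Cdkn1a at its other start, chr17:29093519-29093818, and Phlda3, chr1:135765835-135766134). All 4 are on the plus strand.
Cdkn1a first start: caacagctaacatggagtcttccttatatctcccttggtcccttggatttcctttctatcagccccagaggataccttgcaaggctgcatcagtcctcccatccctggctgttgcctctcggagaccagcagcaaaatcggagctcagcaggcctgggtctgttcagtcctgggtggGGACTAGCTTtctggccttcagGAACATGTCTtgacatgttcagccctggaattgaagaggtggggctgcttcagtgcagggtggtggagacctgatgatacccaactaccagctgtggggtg
Cdkn1a other start: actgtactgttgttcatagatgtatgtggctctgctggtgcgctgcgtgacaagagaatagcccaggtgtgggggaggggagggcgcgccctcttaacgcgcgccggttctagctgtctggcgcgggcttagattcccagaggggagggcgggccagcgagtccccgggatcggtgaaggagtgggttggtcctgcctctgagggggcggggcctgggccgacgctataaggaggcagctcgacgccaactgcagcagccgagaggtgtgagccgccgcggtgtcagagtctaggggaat
Phlda3: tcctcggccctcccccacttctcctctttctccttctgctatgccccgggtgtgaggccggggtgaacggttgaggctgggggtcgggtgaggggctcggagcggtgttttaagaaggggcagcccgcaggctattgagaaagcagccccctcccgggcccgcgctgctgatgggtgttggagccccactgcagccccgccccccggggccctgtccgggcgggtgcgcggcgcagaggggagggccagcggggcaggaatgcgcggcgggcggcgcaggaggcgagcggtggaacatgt
Ddit4l: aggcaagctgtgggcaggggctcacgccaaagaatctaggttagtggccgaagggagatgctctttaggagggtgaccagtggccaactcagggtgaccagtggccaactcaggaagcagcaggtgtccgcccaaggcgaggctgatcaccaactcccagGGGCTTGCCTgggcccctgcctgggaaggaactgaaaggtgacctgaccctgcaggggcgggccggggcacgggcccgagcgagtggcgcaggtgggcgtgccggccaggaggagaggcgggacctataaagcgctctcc
The matches of the Cdkn1a window began 73 and 51 bases before the start, and that of Ddit4l 90 bases before it. The GC box GGGCGG, read on both strands, was present in 7 of the 10 windows against 35.7% of all promoters, and the E-box CAGCTG, which reads the same on both strands, in 2 windows against 16.3%. No match overlapped a half-site in the windows printed. The absence of these letters from the Phlda3 window says nothing on whether p53 acts on that gene.

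Signals below are the deposited linear intensities, in arbitrary units, and a log2 fold is the difference of mean log2(signal + 16), HSALR minus WT, with its standard error (SE) from limma. This scale understates the difference of dim genes. A probe set passed the filter if it averaged at least 6.09 on the log2 scale across the 19 samples, and a call is an adjusted p under the 5% false discovery rate over all 22519 probe sets tested. Of the 19 probe sets of the members, 16 passed, and each member kept at least 1. The dim ones that did not pass were 1419497_at of Cdkn1b, 1416927_at of Trp53inp1 and 1457929_at of Mdm2, whose signals lay between 1.71 and 51.1 in every sample. Array medians ranged from 39.7 to 71.9, so the arrays were not at the same brightness. Calls after quantile normalization are therefore also named where they differ from those as deposited. HSALR replicates 9 and 10 were the closest pair of the series, with a Spearman correlation of 0.978 over the probe sets tested, while the closest partner of each other sample gave 0.953 to 0.969. Values without them are given beside the results they move. Fast fibre markers had a mean log2 level of 13.54 ± 0.03 in HSALR and 13.60 ± 0.02 in WT samples (SD, n = 10 and 9), so the samples hold abundant transcripts of the labelled tissue.

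Through the brightest probe set of each gene, 2 of the 10 members were called higher in HSALR (Cdkn1a and Phlda3), where 3.11% of the 11533 genes tested were. Ddit4l alone was called lower, 1 of the 10, where 2.31% of genes were. After quantile normalization 3 members were higher (Trp53inp1 in addition), against 6.96% of genes, and Ddit4l was lower, against 8.51%. Of the 16 member probe sets, 4 were called, against 5.06% of all probe sets. Because the members were chosen on this contrast, nothing is read from these counts. The same 4 probe sets (1424638_at of Cdkn1a, 1449002_at of Phlda3, 1444139_at and 1439332_at of Ddit4l) were called in each of the 28 other settings run.

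**Figure D1:**
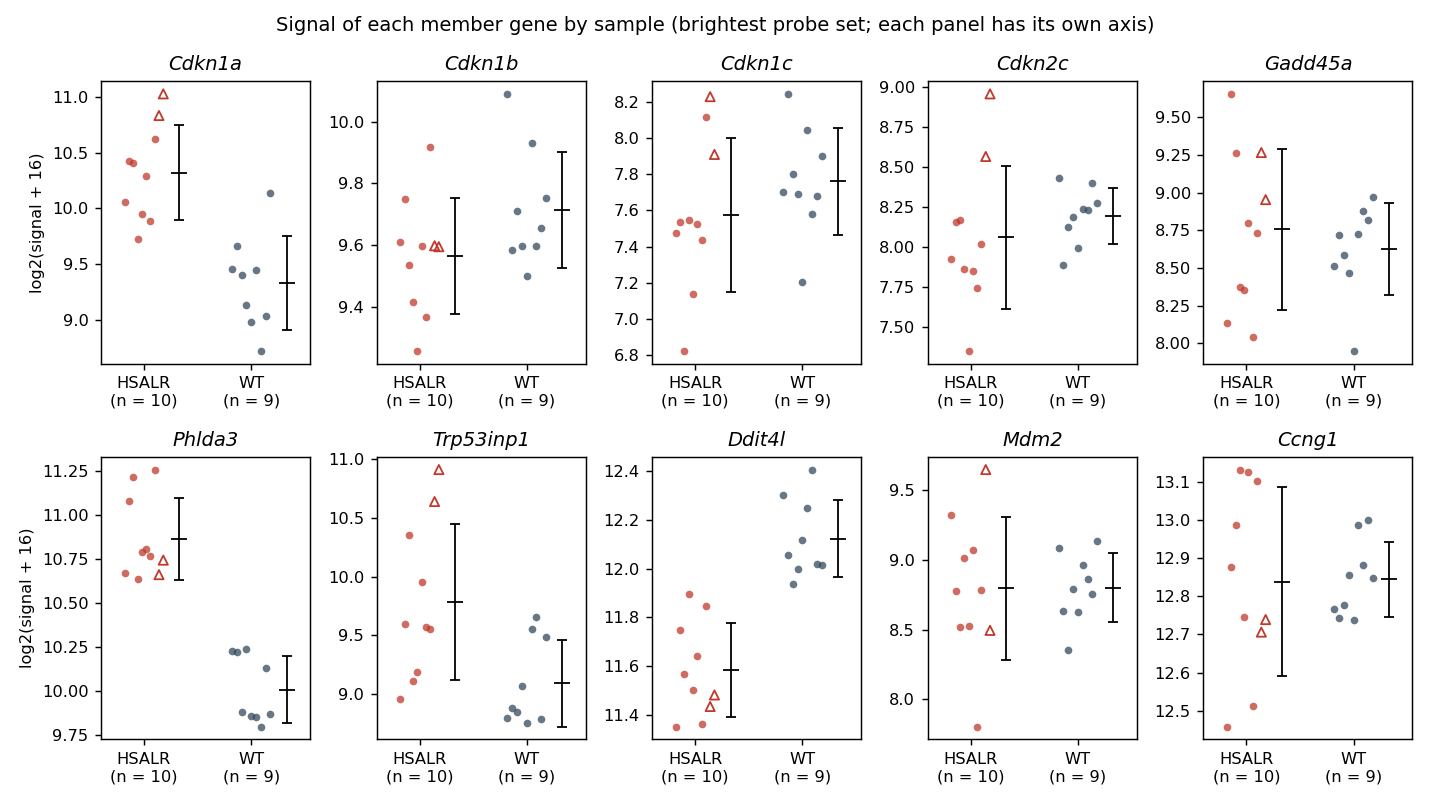
Log2(signal + 16) of the brightest probe set of each gene in each HSALR sample (red, n = 10, replicates 9 and 10 as open triangles) and WT sample (blue, n = 9). Bars give the mean ± SD, and each panel has its own vertical axis. Phlda3 and Ddit4l are the genes whose groups do not overlap, with Phlda3 higher and Ddit4l lower in all 10 HSALR samples.

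Cdkn1a, the p21 inhibitor, had a lowest, median and highest signal of 830, 1289 and 2075 in HSALR samples, against 406, 661 and 1110 in WT samples, through probe set 1424638_at. All WT samples lay below 6 of the HSALR samples, and the other 4 lay within the WT range, whose top was WT replicate 9. The mean was 1317 ± 404 in HSALR and 654 ± 209 in WT samples (SD, n = 10 and 9), a log2 fold of 0.99 ± 0.18. The second probe set, 1421679_a_at, had 265, 541 and 1180 in HSALR samples and 236, 383 and 536 in WT samples, with a log2 fold of 0.61 ± 0.21. It pointed the same way but was called in 3 of the 28 other settings only, which were quantile normalization, median centring and the fit without HSALR replicate 5. Without HSALR replicates 9 and 10 the log2 folds of the 2 probe sets were 0.84 ± 0.17 and 0.37 ± 0.16.

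Cdkn1b, the p27 inhibitor, had 596, 757 and 951 in HSALR samples, against 707, 791 and 1074 in WT samples (1434045_at), and a log2 fold of -0.15 ± 0.10. The groups overlapped in 7 of the 10 HSALR samples as deposited. After quantile normalization the log2 fold was -0.20 and 7 HSALR samples lay below every WT sample, and Cdkn1b was called in none of the 28 other settings. Cdkn1c, the p57 inhibitor, had 97.4, 169 and 284 in HSALR samples and 131, 192 and 287 in WT samples (1417649_at), with a log2 fold of -0.19 ± 0.16. Among the HSALR values, 8 lay within the WT range.

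Cdkn2c, the p18 inhibitor, had 147, 235 and 482 in HSALR samples, against 221, 284 and 329 in WT samples (1416868_at). The HSALR group was the more widely spread, with 4 samples inside the WT range and the highest values in replicates 9 and 10. Its log2 fold was -0.14 ± 0.15 over all samples and -0.31 ± 0.11 without those 2 replicates, and the single setting that called it was quantile normalization without them. The 4 inhibitor genes therefore differed in sign: Cdkn1a was higher in HSALR, while Cdkn1b, Cdkn1c and Cdkn2c had log2 folds below 0 and were not called as deposited.

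Gadd45a, whose protein binds the replication factor PCNA and takes part in growth arrest and DNA repair, had 248, 420 and 791 in HSALR samples and 231, 406 and 486 in WT samples (1449519_at). The WT range held 7 of the HSALR samples, and the log2 fold was 0.13 ± 0.19. Phlda3, a pleckstrin homology protein that competes with the kinase Akt for membrane lipids, had 1573, 1740 and 2435 in HSALR samples, against 874, 928 and 1190 in WT samples (1449002_at). Every HSALR sample lay above every WT sample, as held for 0.36% of the probe sets tested. Its mean was 1869 ± 323 in HSALR and 1021 ± 137 in WT samples (SD, n = 10 and 9), a log2 fold of 0.85 ± 0.10, and 0.89 ± 0.11 without HSALR replicates 9 and 10.

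Trp53inp1, a nuclear protein induced by p53 that promotes cell death and autophagy, had 481, 752 and 1910 in HSALR samples, against 415, 457 and 793 in WT samples (1416926_at). All WT samples were exceeded by 4 HSALR samples, and the other 6 lay among them. The log2 fold was 0.69 ± 0.23 over all samples and 0.44 ± 0.18 without HSALR replicates 9 and 10, which held the highest values. It was called after quantile normalization and when HSALR replicate 1, 4 or 5 was left out, and in no other setting.

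Ddit4l was measured by 3 probe sets, which differed in the size of its lower signal in HSALR. The brightest by the rule used here, 1444139_at, had 2598, 2952 and 3795 in HSALR samples and 3909, 4245 and 5410 in WT samples. Every HSALR sample lay below every WT sample, as held for 0.289% of the probe sets tested, and the log2 fold was -0.54 ± 0.09. Probe set 1439332_at had 814, 1121 and 1579 in HSALR samples, against 1573, 1933 and 2594 in WT samples. There 9 HSALR samples were below all WT samples, and the log2 fold was -0.81 ± 0.13. Probe set 1451751_at had 2627, 3356 and 4565 in HSALR samples, against 3284, 3845 and 4514 in WT samples. Its groups overlapped and its log2 fold of -0.16 ± 0.11 was not called in any setting run, so the probe sets of Ddit4l disagree on whether the difference passes. The files do not say which transcripts each of them reads.

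Mdm2, the ubiquitin ligase that restrains p53, had 208, 424 and 787 in HSALR samples, against 311, 428 and 545 in WT samples (1423605_a_at). The log2 fold was -0.00 ± 0.17, and it changed sign in 10 of the 28 other settings. Its other measured probe set, 1427718_a_at, had 149, 221 and 252 in HSALR samples and 182, 235 and 345 in WT samples, with a log2 fold of -0.20 ± 0.11 that was called after quantile normalization and after median centring.

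Ccng1, cyclin G1, which binds a phosphatase that acts on Mdm2, had 5612, 7177 and 8960 in HSALR samples, against 6813, 7353 and 8182 in WT samples (1420827_a_at). Probe set 1450017_at had 1743, 2347 and 3395 in HSALR samples and 2311, 2738 and 3166 in WT samples. The third, 1450016_at, had 918, 1199 and 1471 in HSALR samples and 931, 1169 and 1348 in WT samples. The log2 folds of the 3 probe sets were -0.01 ± 0.10, -0.16 ± 0.13 and 0.02 ± 0.11 (1420827_a_at, 1450017_at and 1450016_at), none of them was called in any setting, and the sign of the first changed in 10 and that of the last in 6 of the 28 settings.

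Other genes of the same pathways were taken from lists that had not been picked for how their genes moved, though earlier results of these data were known. Among other p53 targets, 35 of the 46 genes on the array passed the filter. Of these, 1 was called higher and 1 lower in HSALR, where 3.11% and 2.31% of all genes tested were. The median log2 fold was 0.12, against 0.05 over all 11533 genes tested, and both were 0.01 without HSALR replicates 9 and 10. The gene that rose was Eda2r, a member of the tumour necrosis factor receptors, with 579, 762 and 1301 in HSALR samples against 109, 133 and 168 in WT samples. Every HSALR sample lay above every WT sample, and the log2 fold was 2.41 ± 0.13 (adjusted p = 8.16e-11, limma). The gene that fell was Polk, a DNA polymerase that copies past damaged bases, with 130, 190 and 229 in HSALR samples against 190, 263 and 342 in WT samples, and a log2 fold of -0.47 ± 0.11 (adjusted p = 0.0156, limma). Quantile normalization gave 4 higher and 2 lower, against 6.96% and 8.51% of all genes tested. It added Abhd4, Bbc3 and Zmat3 above and Rrm2b below. Leaving out HSALR replicate 5 gave 5 higher. At an unadjusted p under 0.05 (limma), 8 of the 35 genes were higher and 3 lower. Without HSALR replicates 9 and 10 these counts were 5 and 3. The share of all genes tested at an unadjusted p under 0.05 was not counted. Nothing is therefore read from unadjusted limma counts, for this list or for those below. Of the genes that did not pass, Sesn1 had a log2 fold of 0.37 ± 0.17, Perp 0.12 ± 0.13 and Btg2 0.02 ± 0.33. These 3 were singled out after their values were seen, so nothing on the list is read from them.

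Of 19 genes tested from the p53 family and its regulators, limma called 0 higher, and Hipk2, a kinase that phosphorylates p53, fell. At an unadjusted p under 0.05, 2 were higher and 2 lower. Hipk2 had 1090, 1577 and 1902 in HSALR samples, against 1828, 2135 and 2578 in WT samples, and 8 HSALR samples lay below all WT samples (log2 fold -0.50 ± 0.12, adjusted p = 0.0134, limma). Quantile normalization called Hipk2, Cop1 and Ep300 lower, where 8.51% of all genes tested were. The list's median log2 fold was -0.04, and without HSALR replicates 9 and 10 it was -0.07, with 0 higher at an unadjusted p under 0.05. Mdm4, the partner of Mdm2 in holding p53 down, had a log2 fold of -0.12 ± 0.16 and did not pass. Among 8 tested paralogues of the members, limma called 0 at the adjusted threshold and, at an unadjusted p under 0.05, 2 higher, with a median log2 fold of 0.13. Without HSALR replicates 9 and 10 the median was -0.00, with 0 higher at an unadjusted p under 0.05. Cdkn2d, the INK4 relative of Cdkn2c, had a log2 fold of 0.25 ± 0.11 and Ccng2, the relative of Ccng1, 0.32 ± 0.12. Quantile normalization called Trp53inp2, the relative of Trp53inp1, lower at -0.17.

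Of 18 cyclins, cyclin-dependent kinases and pocket proteins tested, 1 rose and 2 fell, where 3.11% and 2.31% of all genes tested did. The list's median log2 fold was -0.10. Quantile normalization called 1 higher and 5 lower, against 6.96% and 8.51% of all genes tested, with Rbl2, E2f6 and Cdk2 added below. Rb1, the retinoblastoma protein that cyclin-dependent kinases inactivate, had 548, 759 and 833 in HSALR samples against 474, 554 and 601 in WT samples. Its log2 fold was 0.35 ± 0.10 (adjusted p = 0.0334, limma), and it was called in 13 of the 28 other settings. Tfdp1, the dimer partner of the E2F factors, had 296, 405 and 654 in HSALR samples, against 528, 587 and 688 in WT samples, with 9 HSALR samples below all WT samples (-0.54 ± 0.12, adjusted p = 0.00913, limma). Ccne2, cyclin E2, had 67.3, 127 and 199.7 in HSALR samples, against 152, 185 and 225 in WT samples (-0.57 ± 0.15, adjusted p = 0.029, limma). Without HSALR replicates 9 and 10 the adjusted p was 0.1 for Rb1 and 0.0973 for Ccne2, so their calls were lost.

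Only 13 of 29 proliferation genes on the array passed the filter, and limma called 0 of them at the adjusted threshold. At an unadjusted p under 0.05, 4 of them were higher and 1 was lower, and without HSALR replicates 9 and 10 these counts were 1 and 1. Quantile normalization called Aurka, a mitotic kinase, lower (adjusted p = 0.0378, limma). Of the 6 tested genes of the imprinted cluster around Cdkn1c, limma likewise called 0 at the adjusted threshold and 1 higher at an unadjusted p under 0.05, and quantile normalization called Cd81 higher (adjusted p = 0.0486, limma). Among 14 genes of the ATF4 and stress response, the glutathione-degrading enzyme Chac1 fell, with 429, 1085 and 1892 in HSALR samples against 998, 2187 and 2888 in WT samples (log2 fold -0.97 ± 0.23, adjusted p = 0.0148, limma). Quantile normalization called Atf3 higher and 4 of these lower (Chac1, Atf4, Cebpg and Vldlr). Over all genes tested it called 6.96% higher and 8.51% lower, where the fit as deposited called 3.11% and 2.31%. The median log2 folds of these 3 lists were 0.13, 0.23 and 0.03, and 0.01, 0.06 and -0.07 without HSALR replicates 9 and 10.

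Covariation between samples within a group does not use the contrast by which the members were chosen. Pearson correlations were computed for the 45 pairs of members in each group on quantile-normalized values, because differences in array brightness make genes covary as deposited. The 90 p-values, by permutation in HSALR and by exact permutation in WT, were adjusted together. At the adjusted threshold 0 pairs passed in either group, with a smallest adjusted p of 0.159 in HSALR and 0.363 in WT samples. At an unadjusted permutation p under 0.05 there were 10 pairs in HSALR, or 3 without replicates 9 and 10, and 2 in WT samples. The share of pairs of other genes that do so was not counted, so these counts are not read as a trait of the members. The median r was -0.10 over HSALR pairs, which ranged from -0.87 to 0.76, and 0.12 over WT pairs, which ranged from -0.54 to 0.67.

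Cdkn1a and Ddit4l had the most negative correlation in HSALR, with r = -0.868 and rho = -0.685 (permutation p = 0.00177, adjusted 0.159). It was -0.664 without replicates 9 and 10, and -0.636 without the 2 samples farthest from the Cdkn1a median. Cdkn1a with Trp53inp1 gave 0.730 over all 10 HSALR samples and 0.335 over the other 8, and Cdkn1a with Cdkn2c gave 0.748 and 0.243. Trp53inp1 with Ddit4l gave -0.813 and -0.528. Cdkn1a and Phlda3, the members called higher, had r = -0.284 over 10 HSALR samples and 0.713 over the other 8, and -0.044 over 9 WT samples. The correlations of these pairs therefore rest to different degrees on replicates 9 and 10, and 14 of the 45 HSALR pairs changed sign without them. In WT samples the highest r was that of Gadd45a with Trp53inp1, at 0.670 with rho = 0.583 (exact permutation p = 0.048, adjusted 0.363), and r was 0.544 without the 2 samples farthest from the Gadd45a median.

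**Figure D2:**
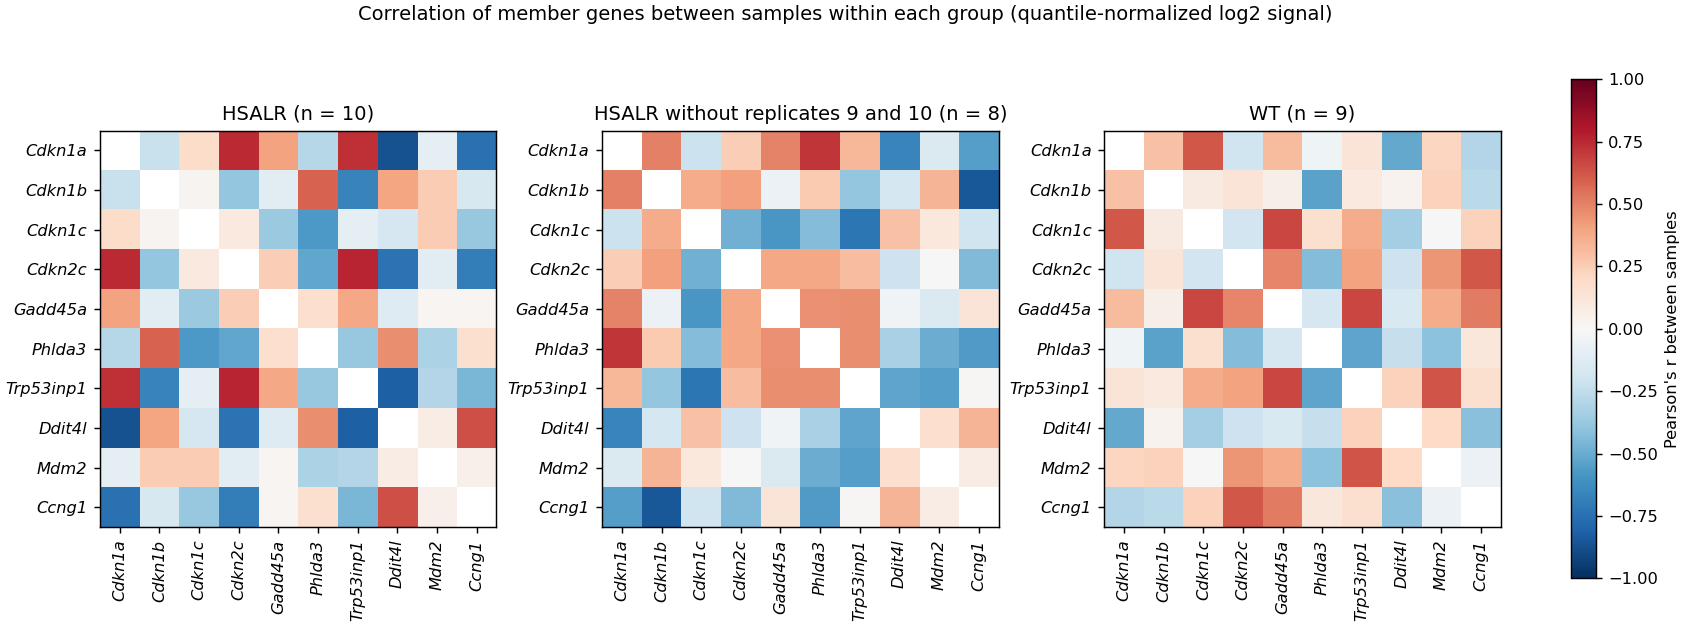
Pearson's r between samples for each pair of the 10 genes on quantile-normalized log2 signals, in HSALR samples (left, n = 10), HSALR samples without replicates 9 and 10 (middle, n = 8) and WT samples (right, n = 9). Red is positive and blue negative. The block of strong values that joins Cdkn1a, Cdkn2c, Trp53inp1 and Ddit4l on the left, such as -0.868 for Cdkn1a with Ddit4l, is paler in the middle panel, at -0.664 for that pair.

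Replicates 9 and 10 stood together at an end of the HSALR range for 7 members (Cdkn1a, Cdkn1b, Cdkn2c, Phlda3, Trp53inp1, Ddit4l and Ccng1). The share of all genes tested that do the same was not counted, so this is not read as a trait of the members. Of the 7, 4 are given here as quantile-normalized log2 values minus the WT mean. For Cdkn1a replicates 9 and 10 were at 1.29 and 1.42, while the 8 remaining HSALR samples lay between 0.36 and 1.03. Trp53inp1 gave 1.33 and 1.54, against 0.01 to 1.15, and Ddit4l gave -0.88 and -0.93, against -0.69 to -0.30. They were the lowest HSALR samples for Phlda3, at 0.44 and 0.46 against 0.60 to 1.10. So the samples farthest above the WT mean for Cdkn1a were the HSALR samples closest to it for Phlda3.

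The probe sets of 1 gene were compared in the same way, with 24 such comparisons adjusted together. The Ddit4l probe sets 1444139_at and 1439332_at had r = 0.940 in HSALR (permutation adjusted p = 0.00096) and 0.755 in WT samples (exact permutation adjusted p = 0.0531). Probe set 1451751_at gave 0.702 with the first in HSALR (permutation adjusted p = 0.0654), or 0.343 without replicates 9 and 10, and 0.569 in WT samples. With the second it gave 0.801 in HSALR (permutation adjusted p = 0.0231), or 0.687 without those replicates, and 0.330 in WT samples. Those of Cdkn1a gave 0.747 in HSALR (permutation adjusted p = 0.0463), or 0.245 without replicates 9 and 10, and 0.871 in WT samples (exact permutation adjusted p = 0.0142). The 3 pairs of Ccng1 gave 0.780 to 0.929 in HSALR samples and -0.092 to 0.344 in WT samples. The Mdm2 probe sets that passed the filter gave 0.487 in HSALR and -0.026 in WT samples, and neither passed.

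Among markers of other cells, the macrophage, satellite cell and fat cell means differed between the groups. The fibroblast, endothelial and T and B cell means did not pass. List means are of quantile-normalized log2 values, and calls are those of the limma fit as deposited unless said otherwise. Over all genes tested, that fit called 3.11% higher and 2.31% lower, and 6.96% and 8.51% after quantile normalization. The mean log2 level of 15 macrophage markers (of 16 listed) ranged from 8.10 to 10.26 in HSALR and from 8.13 to 8.73 in WT samples, a difference of 0.66 (exact permutation adjusted p = 0.0114) that was 0.36 without HSALR replicates 9 and 10. Among them Cd68 and Lgals3 rose, with 2 of 15 called, and quantile normalization added Ctss and Tyrobp. For 10 fibroblast markers (of 12 listed) the range was 10.08 to 12.47 in HSALR and 10.29 to 11.43 in WT samples. The difference was 0.40 (exact permutation adjusted p = 0.276), and 0.06 without HSALR replicates 9 and 10. Pdgfra alone was called, higher, and its adjusted p in limma was 0.0735 without them. The 7 satellite cell and myoblast markers tested, of 10 listed, were higher by 0.29 (exact permutation adjusted p = 0.00053). Their mean ran from 8.34 to 8.67 in HSALR against 8.11 to 8.47 in WT samples, with Ncam1, Chodl and Myog called. Myog lost its call without HSALR replicates 9 and 10 (adjusted p = 0.093, limma). The 3 fat cell markers tested, of 7 listed, were higher by 0.75 (exact permutation adjusted p = 0.00717), with Retn and Adipoq called. The 12 fast fibre markers were lower by 0.06 in HSALR (exact permutation adjusted p = 0.00053). As deposited limma called 0 of them, with 2 lower at an unadjusted p under 0.05, and after quantile normalization it called Casq1, Actn3 and Atp2a1 lower. The 10 endothelial markers differed by -0.06 and 2 T and B cell markers (of 9 listed) by 0.04. Neither passed (exact permutation adjusted p = 0.416 and 0.721), and quantile normalization called the endothelial gene Eng lower. In whole muscle, fewer cells of a type and less RNA per cell cannot be told apart, and the part of these cells in the differences of the members was not tested.

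Within groups, each member was set against 5 measures of the samples, 100 relations adjusted together. HSALR replicates 9 and 10 lie apart from the other 8 on the fibroblast and macrophage means, so r is given with and without them. In HSALR samples Ddit4l with the fibroblast mean gave r = -0.924 (rho = -0.794, permutation adjusted p = 0.013) over all 10 and -0.835 over the other 8. Cdkn1a with the fibroblast mean gave 0.891 (rho = 0.758, permutation adjusted p = 0.0292) and 0.758 over the other 8. The macrophage mean gave r = -0.892 and rho = -0.855 with Ddit4l and r = 0.892 and rho = 0.721 with Cdkn2c (permutation adjusted p = 0.0292 for each), and r was -0.681 and 0.620 over the other 8. Ddit4l also followed the mean ratio of 3-prime to 5-prime signal of the actin and Gapdh control probe sets, a sign of RNA quality, at r = -0.845 and rho = -0.758 (permutation adjusted p = 0.0458). There r was -0.769 over the other 8, and -0.605 without the 2 samples farthest from the median of that ratio. In WT samples Phlda3 with the fibroblast mean gave r = 0.843 and rho = 0.883 (exact permutation adjusted p = 0.042), and 0.795 without the 2 samples farthest from the median of that mean. In HSALR samples Phlda3 gave r = -0.582 with it over all 10 and 0.461 over the other 8. The relations named for HSALR were also read in WT samples. There the fibroblast mean gave r = -0.323 with Cdkn1a and -0.263 with Ddit4l. The macrophage mean gave -0.383 with Ddit4l and 0.034 with Cdkn2c, and the 3-prime to 5-prime ratio 0.043 with Ddit4l. No other relation passed, and no Spearman correlation passed the same adjustment.

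**Figure D3:**
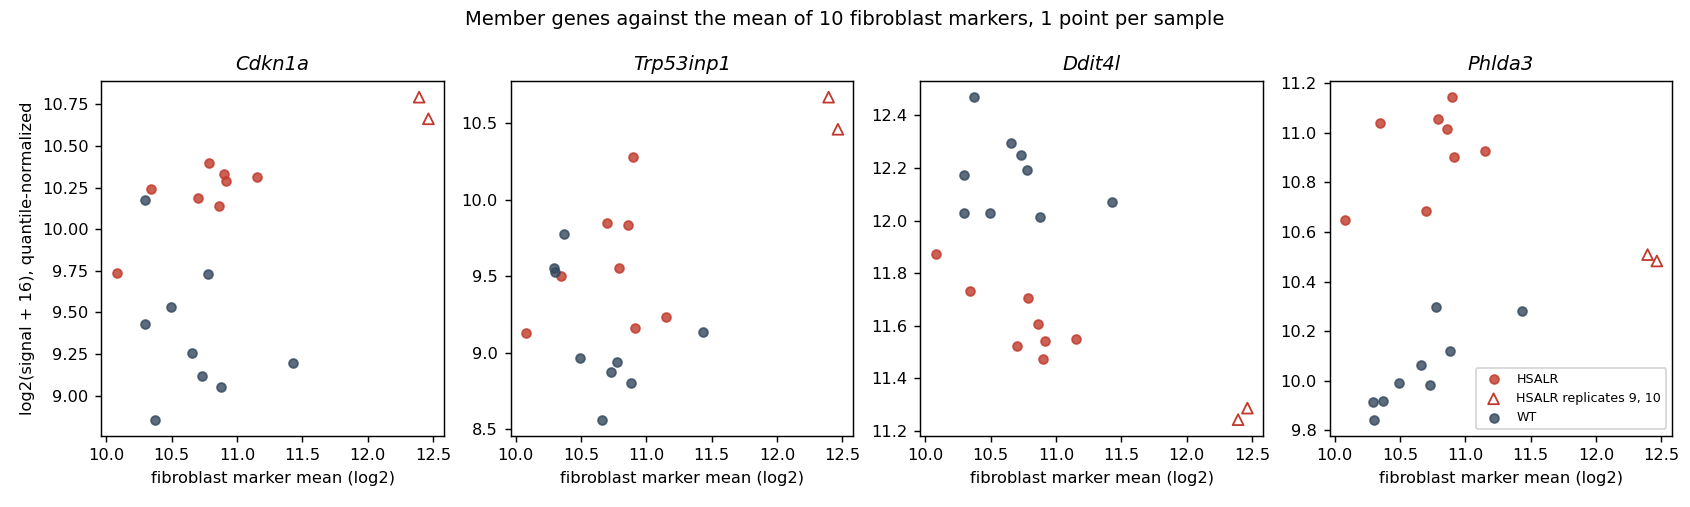
Quantile-normalized log2(signal + 16) of Cdkn1a, Trp53inp1, Ddit4l and Phlda3 against the mean log2 level of 10 fibroblast markers, 1 point per sample (HSALR red, replicates 9 and 10 as open triangles, WT blue). In HSALR samples Cdkn1a is higher and Ddit4l lower where the marker mean is higher (r = 0.891 and -0.924), while the WT samples of Phlda3 rise with it (r = 0.843). These relations did not pass in the other group, where r was -0.323 and -0.263 in WT samples for Cdkn1a and Ddit4l. For Phlda3 it was -0.582 in HSALR samples.

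The genes whose levels followed each member most closely were found by Pearson's r over all 19 samples after the group means were subtracted, among 11523 genes, and are given as a description. For Cdkn1a they were Ddit4 (r = 0.86), the kinase Pim3 (0.84) and Gadd45b (0.84), and these were 0.82, 0.80 and 0.80 without HSALR replicates 9 and 10. Ddit4, the paralogue of Ddit4l and an inhibitor of mTORC1 signalling, had 1248, 3001 and 6611 in HSALR samples and 1272, 1536 and 5511 in WT samples, and its log2 fold of 0.45 ± 0.31 did not pass. Gadd45b, the paralogue of Gadd45a, had a log2 fold of 0.37 ± 0.43, which did not pass either. Cdkn1b was followed by Zfand5 (0.88), Ttc19 (0.85) and Ppat (0.81), and Cdkn1c by Fam189b (0.77), Irf8 (0.76) and Mga (0.72). Without HSALR replicates 9 and 10 these were 0.86, 0.80 and 0.74 for Cdkn1b and 0.81, 0.76 and 0.71 for Cdkn1c. Cdkn2c was followed by Hsd17b11 (0.86), Tsc22d1 (0.86) and the macrophage marker Lgals3 (0.85), which dropped to 0.57, 0.70 and 0.58 without replicates 9 and 10.

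Gadd45a was followed by Nt5dc1 (0.85), the clock gene Per2 (0.76) and the immediate early response gene Ier5 (0.75). The nearest genes to Phlda3 were Cdip1, itself a p53 target that promotes cell death (0.82), the filamin Flnc (0.79) and Card19 (0.78), at 0.69, 0.68 and 0.62 without replicates 9 and 10. Those nearest to Trp53inp1 were Rnf13, Peli2 and Nt5e (0.83 each), at 0.71, 0.77 and 0.69 without those replicates. For Ddit4l they were Hus1, a subunit of the DNA damage checkpoint clamp (0.83), Nampt, which makes a precursor of NAD (0.83), and Clec2d (0.83). Without replicates 9 and 10 these were 0.72, 0.70 and 0.72. Mdm2 was followed by Pgs1 (0.73), Zfp516 (0.72) and Cox6a2 (0.71), at 0.75, 0.65 and 0.72 without them. Ccng1 was followed by Pabpc4 (0.87), the protein kinase A subunit Prkaca (0.87) and Amz2 (0.85), at 0.79, 0.81 and 0.77 without them. No member was among the genes searched, so none could be the nearest of another.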

How the data were processed

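RNA of 10 HSALR and 9 WT EDL samples was labelled with biotin and hybridised to 1-colour arrays, per the labels' protocols. The authors deposited 1 linear intensity for each of 45101 probe sets and array. The submitters' processing notes name GCOS 1.4, and for its algorithm and scaling the setting is not given in the sources used here. No value was at or below 0, the trimmed mean ranged from 157 to 244 between arrays, and no value column was left unmapped. No count of molecules is known for arrays, and the number of arrays limits the precision.

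From these values, log2(signal + 16) was computed with the scaling as deposited. After removal of 64 controls, the 22519 probe sets at or above the median of the mean log2 values went into a limma fit (version 3.58.1, R 4.3.3, empirical Bayes, 2-sided, Benjamini-Hochberg over all of them). Genes are read by their brightest probe set. Symbols came from the platform annotation, updated through Entrez identifiers: 34945 probe sets had 1 symbol, 932 several and 9160 none. Within-group correlations used quantile-normalized values and 100000 resamples in HSALR and all orders in WT, and marker means an exact permutation test over all 92378 divisions (Python 3.11.15), all 2-sided. Named were every member with every probe set, up to 4 called genes with the smallest p in each list, and the 3 genes most correlated with each member; other names were chosen after their values were seen. Alternatives were other pseudocounts, no filter, quantile normalization, median centring, a replicate block and samples left out. Replicate numbers are shared by both groups, but the correlations of same-numbered samples ranged from -0.24 to 0.13, with 3 of 9 over 0.1, so they were not treated as pairs. The members and lists were chosen with earlier results of these data known. The fitting and correlation steps were tested on simulated data. Promoter sequences are those of RefSeq on GRCm38.p6, and no build applies to the intensities.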

Additional observations from a re-analysis of the deposited data

Results flagged for a closer look

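Gadd45a, probe set 1449519_at, had 1 WT sample far below the others as deposited. WT replicate 5 had a log2(signal + 16) of 7.95, and its gap to the nearest other WT sample was 0.506 of the range of the group. It was the single sample to stand out by Dixon's criterion among 46 groups examined, fewer than chance alone gives at the 95% level. The other 8 WT samples had signals from 337 to 486. The criterion was applied to values as deposited only. After quantile normalization WT replicate 5 was at 8.07 and WT replicate 1 at 8.27, with a highest WT value of 9.04. On that scale replicate 5 no longer stood far from the other WT samples.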

How the results depend on the processing

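The log2 folds of the 16 member probe sets moved by less than the larger SD of the HSALR and WT groups in all 448 refits. Refits that only left out 1 sample, or HSALR replicates 9 and 10, could not fail this. Such a step moves a group mean by less than its SD, so no robustness is read from them. Without replicates 9 and 10 the log2 fold of Cdkn2c went from -0.14 to -0.31, and that of Trp53inp1 from 0.69 to 0.44. As deposited, 645 probe sets were higher and 495 lower in HSALR. Quantile normalization gave 1457 higher and 1885 lower, and 1158 and 1307 when HSALR replicates 9 and 10 were also left out, an alternative added after the data were seen. Leaving out those replicates alone gave 429 higher. Median centring gave 1209 lower. Other p53 targets numbered 1 higher and 1 lower as deposited, 4 and 2 after quantile normalization, and 2 and 2 with replicates 9 and 10 also left out. Leaving out 1 sample at a time gave 467 to 1562 probe sets higher and 383 to 670 lower, 1 to 5 other p53 targets higher and 1 to 1 lower, and median correlations of -0.11 to -0.03 in HSALR and -0.00 to 0.16 in WT samples. The highest counts, 1562 and 5, came without HSALR replicate 5, and 2 targets were higher without WT replicate 9. As deposited, the median correlation between members was 0.30 in HSALR and 0.24 in WT samples, and after median centring -0.04 and 0.37. With the replicate block, which pairs samples by a shared number only, 409 probe sets were higher and 307 lower. Of the list counts, 77 moved by over 1.5 times and 707 did not. The cause of these shifts was not tested, and dim probe sets, near the background of the array, limit what can be called.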
